A study of Xenopus tropicalis with 52 samples.

Results

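The mitochondrial ribosomal proteins are the products of nuclear genes that are imported into mitochondria and assembled there, with mitochondrial rRNA, into the ribosomes that translate the mRNAs of the mitochondrial genome. Members were taken by name alone, as every gene row named *mrpl* (large subunit) or *mrps* (small subunit) followed by a number. The rule found the same 72 genes in both count tables analysed here, which hold 21750 gene rows (for Series 1 and Series 2) and 20193 (for Series 3). Of these, 45 were counted with the large and 27 with the small subunit. By their mammalian counterparts, 27 members of the large subunit and 17 of the small subunit have a homologue in bacterial ribosomes, and the other 18 and 10 are specific to mitochondria. The protein named *mrps30* is part of the large subunit in mammals and was counted there. *mrps36*, named as a small-subunit protein, is now known in mammals as a subunit of the ketoglutarate dehydrogenase complex. It was still counted here with the mitochondria-specific proteins of the small subunit. All 72 symbols matched RefSeq gene symbols of *Xenopus tropicalis*.

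In frogs the egg holds a large store of mitochondria and of maternal mRNA, and the embryo cleaves for hours with little transcription before zygotic genes are switched on around the midblastula transition (MBT). Many maternal mRNAs are kept with short poly(A) tails in the egg and are lengthened or shortened after fertilisation, so the amount of a transcript captured by its tail can move while its total amount does not. Mitochondrial ribosomes translate only a few proteins, all of them subunits of the oxidative phosphorylation complexes, and are built apart from the cytoplasmic ribosomes that translate all other mRNAs.

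The data are 52 RNA-seq libraries from pools of whole, untreated *X. tropicalis* embryos, each pool collected at a given time in hours post fertilisation (hpf). Series 1 covered 0 to 3.0 hpf with 7 polyA+ libraries. Series 2, with 17 polyA+ libraries, began at 2.5 hpf and ended at 9.5 hpf, and 2 of its libraries were taken at 4.5 and 2 at 6.5 hpf. Series 3 ran from 0 to 9.0 hpf with 19 polyA+ libraries, to which 9 Ribo-Zero libraries were added on the hour up to 8.0 hpf. The embryos of each series came from 1 female. PolyA+ libraries hold RNA selected by its poly(A) tail, and Ribo-Zero libraries hold RNA from which rRNA was removed, made from the same extracts as the Series 3 polyA+ libraries of those hours. Series 3 came from another frog colony, with smaller pools, slower cleavage and other library kits than Series 1 and 2, and these differences cannot be told apart. No time point other than 4.5 and 6.5 hpf in Series 2 was repeated, so tests below used neighbouring time points in place of replicates, and they measured the spread around a straight line in time within 1 clutch. In whole embryos, less RNA per cell and fewer cells that hold it cannot be told apart, and every value is relative to the other mRNAs of its library.

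Series 1 libraries held 19925593 to 24659133 counts in all, rRNA included, and those of Series 2 22791007 to 33907947. Series 3 was shallower, at 4539916 to 17998536 for polyA+ and 5326857 to 13562259 for Ribo-Zero. Normalised reads are counts scaled to 25000000 per library with rRNA left out of the total, so 3 counts were worth 2.22 to 4.03 normalised reads before Series 3 and 4.17 to 19.5 within it, and low values in Series 3 rested on few counts. Read numbers were not corrected for transcript length, so levels are compared between times and library types, not between genes. All 72 members reached 10 counts in at least 1 library of Series 1, of Series 2 and of Series 3 polyA+, and 71 did so in Ribo-Zero. In every library of a set, 10 counts were reached by 69 members (Series 1), 72 (Series 2), 56 (Series 3 polyA+) and 69 (Ribo-Zero). The labelled stages held against their marker genes: *t*, *mixer*, *mix1*, *gsc*, *chrd* and *eomes*, which are transcribed in the embryo, together made up at most 1.31e-05% of gene counts in Series 1 and up to 0.174% later in Series 2, while the maternal mRNAs *vegt*, *gdf1*, *dnd1*, *dazl* and *velo1* were present throughout. The Ribo-Zero library of 4.0 hpf held 345 normalised reads of *mix1*, against 0 in that of 5.0 hpf, while the other zygotic markers were at 0 to 4.06 there, and the fit over all 9 Ribo-Zero libraries is given without it too. Between replicate libraries the members' normalised reads differed by a median of 0.23 (log2, absolute) at 4.5 hpf and 0.21 at 6.5 hpf, with 2 and 1 of 72 members more than 2-fold apart.

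As a group, the members took up a small share of mRNA. Summed, they made up 0.174 to 0.210% of gene counts over Series 1. Series 2 began at 0.173%, was highest at 5.5 hpf with 0.259% and ended lowest, with 0.141% at 9.5 hpf. Series 3 polyA+ values lay between 0.208 and 0.335%, the highest at 6.0 hpf. In Ribo-Zero libraries the share fell at each of 8 steps, from 0.217% at 0 hpf to 0.129% at 8.0 hpf. Removal of rRNA was uneven along these libraries. It took 4.31 and 6.01% of counts at 0 and 1.0 hpf, 27.3 and 35.0% at 2.0 and 3.0 hpf, and 29.1% at 8.0 hpf. Whether this moved the share was not tested. With the 4.0 hpf library left out, it still fell from 0.184% at 3.0 hpf to 0.170% at 5.0 hpf. In Series 2 the share of 76 cytoplasmic ribosomal protein genes ranged from 0.248 to 1.50%, and that of 72 oxidative phosphorylation subunits from 0.277 to 0.530%.

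**Figure D1:**
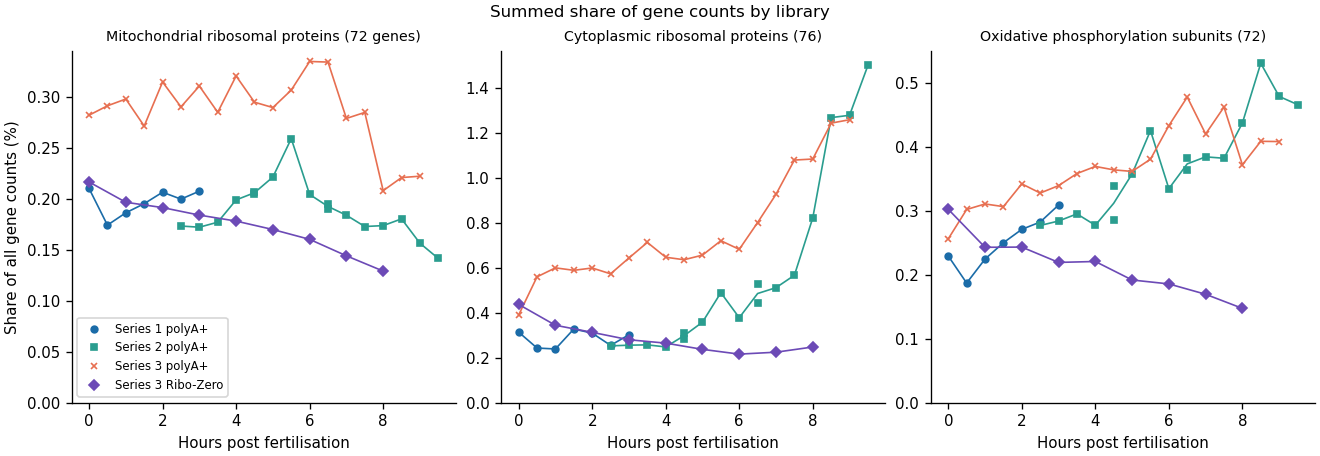
Share of all gene counts (%, y axis, from 0) taken by the 72 mitochondrial ribosomal protein genes, 76 cytoplasmic ribosomal protein genes and 72 oxidative phosphorylation subunits in each library against hours post fertilisation. Points are libraries and lines join the mean at each time; the y scales differ between panels. The mitochondrial ribosomal protein share stayed between 0.129 and 0.335% in all 52 libraries.

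Whether members changed in polyA+ mRNA during cleavage was asked first in Series 1, as the slope of log2 expression per hour over 7 libraries. Of the 72 members, 24 rose and 19 fell (edgeR quasi-likelihood test, adjusted p under 0.05 over 11551 genes), with a median slope of 0.03 per hour. Of all genes tested, 61.8% were called (31.9% rising and 29.9% falling, median slope 0.00), so members were called about as often as other genes. Scaled to library totals in place of TMM factors, the median of all genes moved up by 0.23 and the members split into 33 rising and 10 falling. The 10 mitochondria-specific proteins of the small subunit had 7 rising (*mrps22*, *mrps25*, *mrps31*, *mrps33*, *mrps34*, *mrps35* and *mrps36*) and 1 falling (*mrps27*), with a median slope of 0.59, while the 17 small-subunit proteins with a bacterial homologue had 2 rising (*mrps2* and *mrps24*) and 6 falling, with a median of -0.11. In the large subunit the 27 bacterial homologues split 9 to 8 and the 18 mitochondria-specific proteins 6 to 4. No test compared these groups. Of the 7 rising mitochondria-specific proteins of the small subunit, only *mrps34* and *mrps36* were also called rising in early Series 3. The counts of this group include *mrps36*, described above as a ketoglutarate dehydrogenase subunit in mammals.

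The 3 largest rises were in large-subunit members. *mrpl24* (row Xetrov72015086), a counterpart of bacterial L24, an early assembly protein, gave 5.76, 14.8, 4.96, 25.8, 81.5, 174 and 259.9 normalised reads at the 7 successive Series 1 times. Its values stayed under 30 up to 1.5 hpf and were above 80 from 2.0 hpf. The slope was 1.75 ± 0.23 log2 per hour (SE, 7 libraries, adjusted p = 0.000172). *mrpl45*, which tethers the large subunit to the inner membrane in mammals, gave 29.9, 21.5, 52.1, 104, 239, 303 and 538 normalised reads, a slope of 1.35 ± 0.13 (adjusted p = 3.83e-05). From 0.5 hpf on, each *mrpl45* value was above the one before. *mrpl38*, a mitochondria-specific protein of the large subunit, gave 25.3, 43.0, 39.7, 84.7, 147, 337 and 399, a slope of 1.19 ± 0.14 (adjusted p = 0.000101). Its last values, like those of the other 2, lay far above its first. *mrpl23*, counterpart of the bacterial protein L23 beside the exit tunnel, rose with a slope of 1.15 ± 0.11 from 40.3 to 500.3 normalised reads, and *mrps24*, counterpart of bacterial S3 at the mRNA entry, with 1.15 ± 0.13 from 41.5 to 539. *mrps25* rose with 1.03 ± 0.20 at much lower read numbers, from 5.76 to 54.9.

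The falls were smaller and began from high values. *mrpl43*, a mitochondria-specific protein of the large subunit, gave 3634, 2572, 2114, 2343, 1558, 1196 and 1223 normalised reads in Series 1, a slope of -0.76 ± 0.08 (adjusted p = 6.85e-05). *mrpl51*, another of that group, gave 4379, 1753, 1982, 1454, 1494, 1290.4 and 1171 (slope -0.75 ± 0.09, adjusted p = 0.000138). *mrpl30*, a bacterial homologue, gave 1762, 653, 939.9, 497, 561, 551 and 521 (slope -0.72 ± 0.12, adjusted p = 0.000502). In *mrpl51* and *mrpl30* most of the difference lay between 0 hpf and the later libraries, whereas *mrpl43* fell over the whole window. *mrpl3* and *mrpl16*, counterparts of bacterial proteins near the peptidyl transferase centre, fell with slopes of -0.50 ± 0.08 and -0.60 ± 0.09. Each of these 5 slopes stayed past the threshold when any 1 library was left out.

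**Figure D2:**
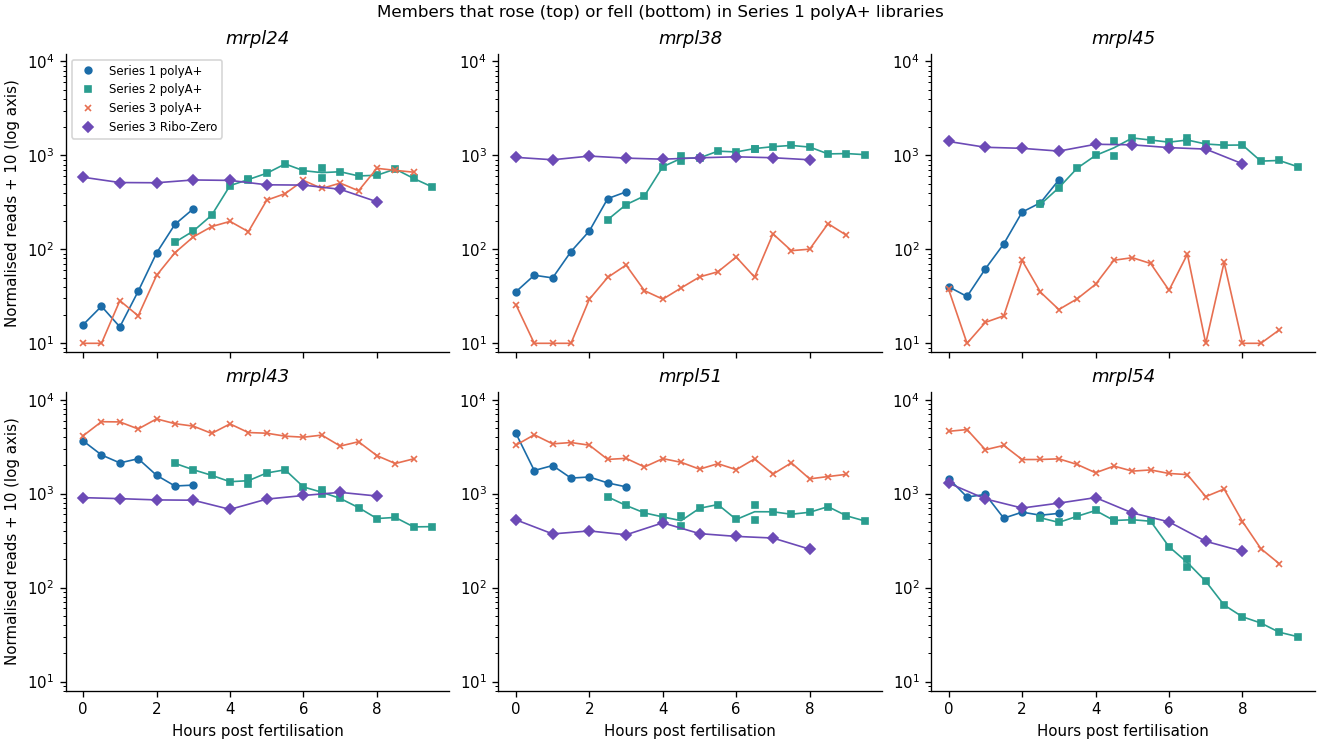
Normalised reads plus 10 (log axis) against hours post fertilisation for *mrpl24*, *mrpl38* and *mrpl45*, which rose in Series 1, and *mrpl43*, *mrpl51* and *mrpl54*, which fell. Each point is a library and lines join the mean at each time. In the top row the Series 3 Ribo-Zero points lay between 311 and 1397 normalised reads while Series 1 polyA+ values rose from 5.76, 25.3 and 29.9 at 0 hpf.

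Series 3 gave an independent clutch over the same hours. Of 69 members tested, 9 rose and 12 fell in its 7 polyA+ libraries from 0 to 3.0 hpf, with a median slope of 0.05, beside 34.4% of 9947 genes called (17.4% rising and 17% falling). With library totals the split was 17 rising and 2 falling, with all genes shifted by 0.12. These counts rested on the last libraries: 2 rose and 4 fell without the 3.0 hpf library, and 3 and 6 without the 2.5 hpf library. Calls over all genes dropped as well, to 902 rising and 827 falling of 10218 genes without 3.0 hpf. Without 2.5 hpf they were 1074 and 910 of 10072. Of the 9 rising members, 6 had also risen in Series 1 (*mrpl4*, *mrpl23*, *mrpl24*, *mrpl41*, *mrps34* and *mrps36*), which is 66.7% of the Series 3 and 25% of the Series 1 risers. Of the 12 falling, 10 had also fallen in Series 1 (*mrpl3*, *mrpl16*, *mrpl17*, *mrpl18*, *mrpl30*, *mrpl51*, *mrpl54*, *mrps9*, *mrps18c* and *mrps27*), 83.3% of the Series 3 and 52.6% of the Series 1 fallers. No member was called in opposite directions in both series. These overlaps of calls were not counted over all genes. Across the 69 members the slopes of both clutches gave a Spearman rho of 0.85 and a Pearson r of 0.83, with the same sign in 60 (87.0%). Over all 9633 genes tested in both, rho was 0.73 and 80.3% had the same sign. These are values across genes, which are not independent replicates.

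Most of the members called in Series 3 were low at fertilisation or fell from high values, as in Series 1. *mrpl24* was at 0, 0, 18.5, 9.61, 42.8, 82.0 and 126 normalised reads in the 7 Series 3 libraries, a slope of 2.17 ± 0.46 (adjusted p = 0.00863). As in Series 1 it was near 0 at fertilisation and highest at 3.0 hpf. *mrpl4*, counterpart of a bacterial protein that lines the exit tunnel, was at 13, 5.78, 10.1, 28.8, 52.5, 84.8 and 93.5, a slope of 1.15 ± 0.27 (adjusted p = 0.0125). *mrpl16* had the largest fall, with 1106, 285, 173, 103, 399, 189 and 197 normalised reads and a slope of -0.75 ± 0.25, and most of that fall lay between 0 and 0.5 hpf. Without the 0 hpf library that slope was -0.21 and did not pass, nor did it without 0.5, 2.5 or 3.0 hpf, and the rise of *mrpl4* did not pass without 2.5 or 3.0 hpf. The calls of *mrpl41*, *mrps27* and *mrps34* were lost in 6, 5 and 2 of 7 such fits. *mrpl54*, a mitochondria-specific protein of the large subunit, went from 4596 to 2337, a slope of -0.51 ± 0.09. *mrpl38* had a Series 3 slope of 0.91 ± 0.57, which did not pass the test (adjusted over all genes), on values between 0 and 58.0 normalised reads. *mrpl45* had too few counts in these libraries to be tested.

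When the slopes of Series 1 and Series 3 were compared directly in 1 fit, 4 of 72 members differed, beside 7.48% of 11227 genes (3.95% with the higher slope in Series 1 and 3.53% with the lower). *mrpl43* fell in Series 1 and was near level in Series 3, where its 7 values ran from 4118 to 6237 (difference -0.72 ± 0.13, adjusted p = 0.0101). *mrps14* (-0.54 ± 0.13) and *mrps11* (-0.34 ± 0.10) also had lower slopes in Series 1, and *mrps24* (0.70 ± 0.20) a higher one. Only the *mrpl43* difference stayed past the threshold in each of 14 fits with 1 library left out, against 10 for *mrps14*, 3 for *mrps24* and 1 for *mrps11*. With Series 3 hours multiplied by 0.8 to match cleavage rates, 1 member was called, with the lower slope in Series 1.

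Slopes of the members in total mRNA were small in the same hours and mostly below 0. In the 4 Ribo-Zero libraries from 0 to 3.0 hpf, 0 of 71 members rose and 5 fell (edgeR, adjusted p under 0.05), with a median slope of -0.07, beside 4.98% of 11720 genes called (2.76% rising and 2.22% falling). The slope was below 0 for 56 of the 71 members (78.9%) and for 50.7% of all genes. At an unadjusted p under 0.05, 1 member rose and 16 fell, and DESeq2 called none in either direction, with 0 rising and 7 falling at its unadjusted p. The 5 were *mrpl21*, *mrpl42*, *mrpl44*, *mrpl47* and *mrpl54*, with slopes from -0.25 ± 0.06 to -0.20 ± 0.05. None fell without the 0 hpf library, 1 without 3.0 hpf, 2 without 2.0 hpf and 13 without 1.0 hpf. Calls over all genes moved likewise: 78 rose and 65 fell without 0 hpf, and 114 and 90 without 3.0 hpf. Without 2.0 hpf they were 186 and 172, and without 1.0 hpf 1022 and 903. *mrpl24*, which rose in polyA+, was at 576, 504, 501 and 538 normalised reads in these libraries (slope -0.02 ± 0.06), *mrpl38* at 943, 888, 973 and 925 (slope 0.01 ± 0.05) and *mrpl45* at 1397, 1210.1, 1179 and 1101 (slope -0.10 ± 0.05). The transcripts of these 3 members were thus abundant in total RNA at fertilisation, when their polyA+ values were under 30 normalised reads in both clutches. *mrpl54* differed from them: it fell in Ribo-Zero as well, from 1284 at 0 hpf to 783 at 3.0 hpf, though its slope was -0.09 without the 0 hpf library.

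Comparing the 2 library types directly at the 4 whole hours, the polyA+ slope exceeded the Ribo-Zero slope for 5 members and was below it for 1, of 71 tested, beside 17.8% of 11521 genes (9.50% above and 8.27% below). The median difference was 0.20 log2 per hour for the members and -0.01 for all genes, and with library totals 12 were above and 0 below, with all genes shifted by 0.10. The 5 were *mrpl24* (1.71 ± 0.35, adjusted p = 0.0225), *mrpl4* (1.11 ± 0.27), *mrpl23* (0.74 ± 0.14), *mrpl44* (0.68 ± 0.15) and *mrpl21* (0.49 ± 0.12), and the 1 was *mrps9* (-0.32 ± 0.09). Fitted with the hour as a replicate block, since each pair came from 1 extract, no gene of the 11521 and none of the members passed, though 11 and 1 members did at an unadjusted p under 0.05. No member was called without the 0, 2.0 or 3.0 hpf pair, and 17 above and 3 below were called without the 1.0 hpf pair. Calls over all genes moved likewise: 320 above and 143 below without 0 hpf, and 0 and 0 without 2.0 or 3.0 hpf. Without 1.0 hpf they were 2403 and 2604.

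Members differed widely in how far they were held in polyA+ relative to total RNA. Over the 4 hours from 0 to 3.0 hpf, with each hour as a block, 38 of 71 members were higher in polyA+ than in Ribo-Zero libraries and 14 were lower. Of 11521 genes, 68.9% were called, 31.0% higher and 37.9% lower. The median difference was 1.17 (log2) for the members and -0.37 for all genes. On library totals, which moved all genes down by 0.83, 28 members were higher and 21 lower. The 16 tested small-subunit members with a bacterial homologue had 10 higher and 2 lower (median 1.20). The 10 mitochondria-specific ones, *mrps36* included, had 3 higher and 3 lower (median -0.14), the same subgroup in which 7 of 10 rose in Series 1. Highest were *mrps26* (3.81 ± 0.23, adjusted p = 0.000132), *mrpl51* (3.76 ± 0.21) and *mrpl43* (3.45 ± 0.18). *mrps26*, specific to the mitochondrial small subunit, had 1952, 3384, 3044 and 3381 normalised reads in polyA+ and 353, 324, 340.3 and 457 in Ribo-Zero at 0, 1.0, 2.0 and 3.0 hpf. Lowest were *mrpl38* (-4.98 ± 0.85, adjusted p = 0.0034), *mrpl45* (-4.91 ± 0.58) and *mrpl2* (-4.42 ± 0.53), a counterpart of the bacterial protein at the peptidyl transferase centre. *mrpl38* had 15.9, 0, 19.5 and 58.0 in polyA+ against 943, 888, 973 and 925 in Ribo-Zero, and *mrpl2* had 4.32, 5.03, 19.5 and 3.22 against 284, 269, 307 and 219, with no overlap between the types for any of the 3. The count filter pooled both types, so a gene could enter this fit through its Ribo-Zero libraries alone. Such a gene could only come out lower in polyA+. Raw polyA+ counts at the 4 hours were 11, 0, 10 and 18 for *mrpl38*, 19, 4, 34 and 4 for *mrpl45*, and 3, 3, 10 and 1 for *mrpl2*.

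The level difference in Series 3 was set beside the slope in the other clutch. Of the 14 members that were lower in Series 3 polyA+ than in Ribo-Zero, 10 rose in Series 1 and none fell. The lower class holds members, such as *mrpl2*, that passed the count filter mainly through Ribo-Zero libraries. Of the 38 that were higher, 1 rose and 18 fell. Among all genes, 59.1% of 4084 lower genes rose and 9.30% fell, and 4.19% of 3485 higher genes rose and 59.5% fell. Across 71 members the Series 1 slope and the Series 3 difference gave a Spearman rho of -0.79 and a Pearson r of -0.76 (rho -0.57 over 10920 genes), on libraries that share no sample. The 4 lower members that did not rise in Series 1 were *mrpl2* (slope 0.32 ± 0.17), *mrpl53* (0.25 ± 0.17), *mrps28* (0.54 ± 0.28) and *mrps18b* (-0.28 ± 0.12), and the higher one that rose was *mrpl49* (0.41 ± 0.13). The other 20 members, of which *mrps2* was not tested in Series 3, split into 13 that rose and 1 that fell, and of the 3351 genes that passed in neither direction of that level difference 30.7% rose and 25.9% fell.

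**Figure D3:**
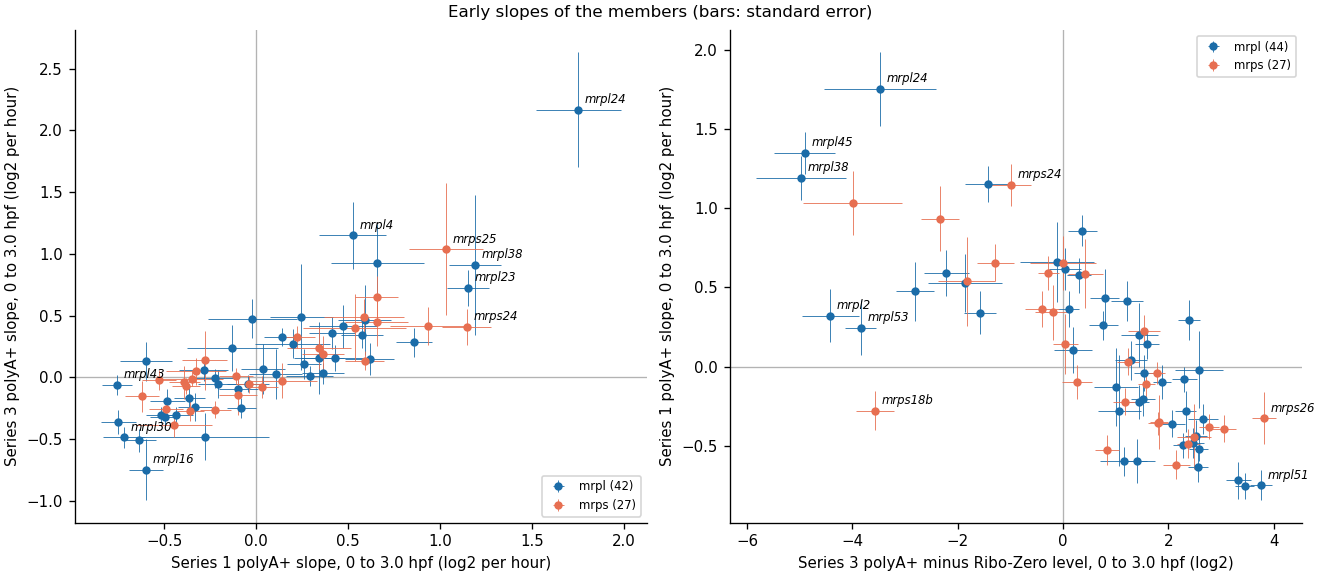
Left, slope of each member in Series 3 polyA+ against Series 1 polyA+ from 0 to 3.0 hpf (log2 per hour, 69 members). Right, Series 1 slope against the Series 3 difference between polyA+ and Ribo-Zero levels over the same hours (log2, 71 members). Bars are standard errors, blue is *mrpl* and orange *mrps*. Slopes of both clutches rose together (rho 0.85), and members low in polyA+ relative to Ribo-Zero had the higher Series 1 slopes (rho -0.79).

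From 2.5 to 5.0 hpf in Series 2, the hours that lead into the MBT of that clutch, more members rose than fell. Of 72 members, 29 rose and 12 fell over 7 libraries, with a median slope of 0.14, beside 49.1% of 12397 genes called (26.2% rising and 23% falling, median 0.00). With library totals the split was 33 rising and 3 falling, and without the 2.5 or the 3.0 hpf library 3 and 5 members fell. Of all genes, 1465 fell without 2.5 hpf and 2126 without 3.0 hpf. Of the 24 risers of Series 1, which is another clutch, 19 also rose here (79.2%, and 65.5% of the 29), and none of the 24 fell. The same overlap was not counted over all genes. *mrpl24* went from 109 at 2.5 hpf to 635 normalised reads at 5.0 hpf (slope 1.05 ± 0.10, adjusted p = 5.79e-05) and *mrpl38* from 197 to 929.8 (0.94 ± 0.10). *mrps34*, a mitochondria-specific protein of the small subunit, went from 119.6 to 482 (0.91 ± 0.13) and *mrpl53* from 48.0 to 241 (0.91 ± 0.12). At 4.5 hpf, where there were 2 libraries, *mrpl24* was at 554 and 533, a spread far smaller than its rise. The largest falls were in *mrps30* (-0.45 ± 0.07), *mrpl51* (-0.31 ± 0.10) and *mrpl10* (-0.31 ± 0.11), which carries the stalk of the large subunit. The fall of *mrpl10* was lost in 5 of 7 fits with 1 library left out and that of *mrpl51* in 3, and without 2.5 hpf the *mrpl51* slope was -0.19.

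After 5.0 hpf members were called in both directions, and no more often than other genes. In Series 2 from 5.0 to 9.5 hpf, 24 rose and 22 fell (11 libraries, median slope -0.01), beside 73.4% of 13438 genes called (35.4% rising and 38.0% falling). In Series 3 polyA+ from 5.0 to 9.0 hpf, 11 rose and 13 fell of 71 (9 libraries, median 0.00), beside 41.4% of 10196 genes (22% rising and 19.4% falling). By the study's account this slower clutch reached the MBT later in hours than Series 2. Its window thus began before its MBT and ended at an earlier stage. Here and below, late calls and slopes of both clutches are set side by side by hours, not by stage. With library totals 11 rose and 35 fell in Series 2 and 8 and 17 in Series 3, with all genes shifted by -0.12 and -0.10. Without the 8.5 hpf library 8 members fell in Series 3, beside 1562 of 10451 genes. Over the same window 73 of 74 cytoplasmic ribosomal protein genes rose in Series 2 and none fell (median 0.66), with 68 and 0 of 74 in Series 3 (median 0.41). Of the oxidative phosphorylation subunits 52 of 68 rose and 8 fell in Series 2 (median 0.22). Of the 13 members that fell in Series 3, 12 had fallen in Series 2 (92.3%, and 54.5% of the 22), and of the 11 that rose, 7 had risen in Series 2 (63.6%, and 29.2% of the 24). None was called in opposite directions. How often calls overlapped over all genes was not counted. Across 71 members, rho was 0.72 between the late slopes of both clutches, against 0.55 over 10077 genes.

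*mrpl54* had the steepest late fall to pass the test in either clutch. In Series 2 it held at 518 and 499 normalised reads at 5.0 and 5.5 hpf, was at 262, 107, 38.9 and 23.5 at 6.0, 7.0, 8.0 and 9.0 hpf and at 20.1 at 9.5 hpf. The slope was -1.06 ± 0.07 (11 libraries, adjusted p = 7.98e-08), and the replicates at 6.5 hpf, 155 and 194, fell between their neighbours. In Series 3 it was still at 1586 at 6.5 hpf and then at 919, 495 and 169.9 at 7.0, 8.0 and 9.0 hpf (slope -0.71 ± 0.12), where *mrpl45* had a lower slope on few reads, -0.86 ± 0.41, that did not pass (adjusted p = 0.117). *mrps17*, counterpart of a bacterial protein that binds rRNA early in assembly, was at 1756, 682 and 178 in Series 2 at 5.0, 7.0 and 9.0 hpf (slope -0.76 ± 0.05, adjusted p = 9.73e-08). In Series 3 it held near 2979.6 until 7.0 hpf and was at 1163 at 9.0 hpf (-0.24 ± 0.07). In both clutches the values of these 2 members were level at first and lowest at the end. *mrpl28* fell in Series 2 (-0.52 ± 0.05) from 1343 at 5.5 hpf to 224 at 9.5 hpf, having risen before 5.0 hpf, while its Series 3 slope was 0.06 ± 0.07. *mrpl47* fell in both, with -0.49 ± 0.06 and -0.49 ± 0.06, as did *mrpl43* (-0.37 ± 0.05 and -0.16 ± 0.04) and *mrpl32* (-0.23 ± 0.05 and -0.31 ± 0.08).

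Among the late risers, *mrps25* went from 91.5 at 5.0 hpf to 269 normalised reads at 9.5 hpf in Series 2 (slope 0.50 ± 0.07, adjusted p = 3.66e-05) and from 51.1 to 143 at 9.0 hpf in Series 3 (0.62 ± 0.19, not called without the 5.0 hpf library). *mrpl10* rose in both (0.45 ± 0.08 and 0.38 ± 0.09), as did *mrpl53* (0.27 ± 0.06 and 0.54 ± 0.07) and *mrpl2* (0.36 ± 0.07 and 1.01 ± 0.23), while *mrpl33* was called only in Series 2 (0.47 ± 0.09, against 0.12 ± 0.10 in Series 3, a difference that was not tested). *mrps18b* had the third largest rise in Series 3 (0.58 ± 0.09) and a slope of 0.04 ± 0.07 in Series 2.

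**Figure D4:**
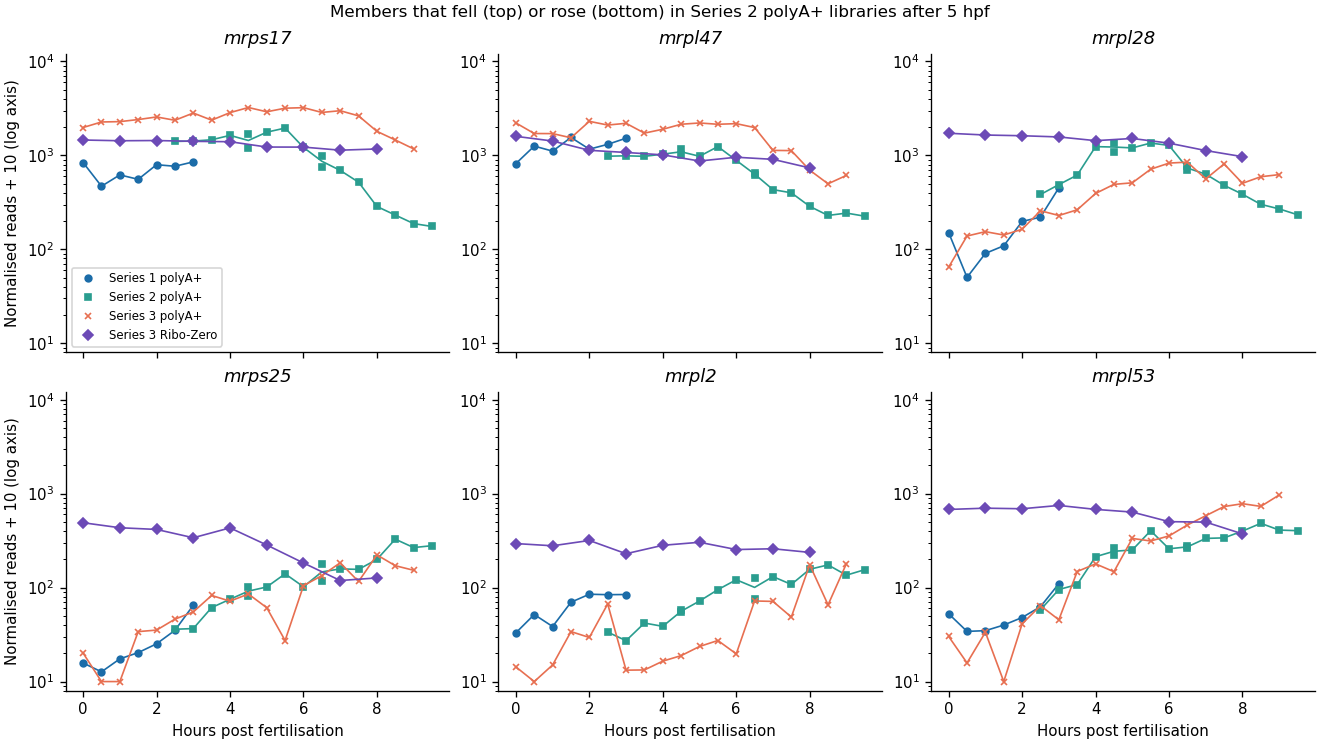
Normalised reads plus 10 (log axis) against hours post fertilisation for *mrps17*, *mrpl47* and *mrpl28*, which fell in Series 2 after 5.0 hpf, and *mrps25*, *mrpl2* and *mrpl53*, which rose. Each point is a library and lines join the mean at each time. The *mrps17* values fell from 1944 at 5.5 hpf to 165 at 9.5 hpf in Series 2. Its 9 Ribo-Zero values, from the slower clutch of Series 3 and ending at 8.0 hpf, lay between 1126 and 1448. In polyA+ libraries of that clutch it was still at 1793.5 to 3212 at the whole hours from 5.0 to 8.0 hpf. Series 2 had no Ribo-Zero library, so total RNA during its fall was not measured.

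In total RNA, by contrast, no member rose. Ribo-Zero libraries came from Series 3 alone, so this late window too began before the MBT of that clutch. Over the 4 Ribo-Zero libraries from 5.0 to 8.0 hpf, 6 of 71 members fell and 0 rose (edgeR, median slope -0.12), beside 16.8% of 11709 genes called (11% rising and 5.79% falling). At an unadjusted p under 0.05, 1 member rose and 19 fell. DESeq2 called 2 falling and 0 rising. None was called without the 8.0 hpf library, which held the fewest gene counts of the set (3851017), and 3 without the 5.0 hpf library. Of all genes, 379 rose and 28 fell without 8.0 hpf, and 1084 and 564 without 5.0 hpf. The 6 were *mrpl54* (-0.45 ± 0.08), *mrps34* (-0.37 ± 0.09), *mrps16* (-0.37 ± 0.10), *mrps18b* (-0.34 ± 0.08), *mrps31* (-0.21 ± 0.05) and *mrpl28* (-0.18 ± 0.05). Over all 9 Ribo-Zero libraries, a fit added after the data had been seen, 37 of 71 members fell and none rose (0 at an unadjusted p under 0.05, and 0 by DESeq2, which called 35 falling), beside 38.0% of 11372 genes called (19.3% rising and 18.7% falling). Without the 4.0 hpf library 38 fell and 0 rose, and without 0 hpf 28 fell and 1 rose. Of all genes, 2069 fell and 2138 rose without 4.0 hpf, and 1561 and 1763 without 0 hpf. The slope was below 0 for 61 members (85.9%) and for 51.8% of all genes, with a median of -0.06 per hour for the members. In the same fit 55 of 71 cytoplasmic ribosomal protein genes and 49 of 67 oxidative phosphorylation subunits fell, with none rising in either.

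The largest falls over 8 hours in total RNA were in *mrps16*, *mrps25* and *mrpl54*. *mrps16*, counterpart of a bacterial assembly protein, was at 1196, 1067, 815, 922, 763, 512, 514, 358 and 207 normalised reads at the 9 hours (slope -0.24 ± 0.03, adjusted p = 5.11e-05). *mrps25* was at 480.2, 424, 406, 329, 422, 274, 173, 109 and 117 (slope -0.23 ± 0.04) and *mrpl54* at 1284, 869, 692, 783, 897, 613, 491, 301 and 233 (slope -0.22 ± 0.03). All 3 were highest at 0 hpf and lowest at 7.0 or 8.0 hpf. *mrps25* thus fell in total RNA over hours in which its polyA+ values rose from 10.1 at 0 hpf to 213 at 8.0 hpf. Others did not pass the test: *mrpl38* was at 888, 933 and 973 (lowest, median and highest of 9, slope 0.02 ± 0.01) and *mrpl12*, the stalk protein, at 1479.9, 1663 and 1758 (slope 0.02 ± 0.02).

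Between 5.0 and 8.0 hpf the polyA+ slope differed from the Ribo-Zero slope for 7 of 71 members, 6 above and 1 below, beside 5.48% of 11382 genes (3.83% above and 1.65% below). Above were *mrpl2* (1.72 ± 0.35, adjusted p = 0.0295), *mrps25* (1.29 ± 0.24), *mrpl53* (0.82 ± 0.16), *mrpl24* (0.67 ± 0.15), *mrps24* (0.64 ± 0.13) and *mrpl41* (0.50 ± 0.09), and below was *mrpl45* (-1.94 ± 0.41). With the hour as a replicate block 8 were above and 1 below. None of these calls held when any 1 of the 4 hours was left out, or with library totals, which shifted all genes by -0.14. Calls over all genes dropped as well: 68 above and 26 below without 5.0 hpf, and 0 and 0 without 6.0 or 7.0 hpf. Without 8.0 hpf they were 1 and 0, and with library totals 105 and 107. *mrpl45* had 71.5, 26.7, 0 and 0 normalised reads in polyA+ at 5.0, 6.0, 7.0 and 8.0 hpf, against 1286, 1200.2, 1157 and 804 in Ribo-Zero, so its difference rested on few counts.

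In the later hours more members were higher in polyA+ than in Ribo-Zero, a change between windows that was not itself tested. From 5.0 to 8.0 hpf, with each hour as a block, 50 of 71 members were higher in polyA+ than in Ribo-Zero and 4 lower, with a median of 1.43 (log2), beside 69.4% of 11382 genes called (34.1% higher and 35.3% lower, median -0.03). On library totals, with all genes shifted by -0.57, 38 were higher and 10 lower. Without the 5.0 hpf pair 2 were lower, beside 3703 of 11494 genes. Of the 38 members higher before 3.0 hpf, 37 were higher again, all but *mrps30*, an overlap that was not counted over all genes. Of the 14 that had been lower, *mrpl38*, *mrpl44* and *mrpl45* were still lower, *mrpl23* was now higher (-1.43 ± 0.43 early and 1.35 ± 0.20 late) and 10 passed in neither direction. Among these 10, *mrpl2*, *mrpl22*, *mrpl28* and *mrps35* still had all polyA+ values below all Ribo-Zero values in normalised reads, and the others overlapped. *mrpl24* moved from -3.48 ± 1.06 to 0.81 ± 0.35, *mrps25* from -4.00 ± 0.94 to 0.14 ± 0.65, and *mrpl53* from -3.84 ± 0.29 to 0.51 ± 0.40. *mrpl45* stayed at -5.21 ± 0.68. *mrpl16* was the one member newly lower, at -1.53 ± 0.52 after 1.15 ± 0.45, and its call was lost without 5.0 or 7.0 hpf, as was that of *mrpl44* without 5.0 or 6.0 hpf. Highest in the later window were *mrpl10* (4.29 ± 0.48), *mrps6* (3.33 ± 0.21) and *mrps26* (3.24 ± 0.16).

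**Figure D5:**
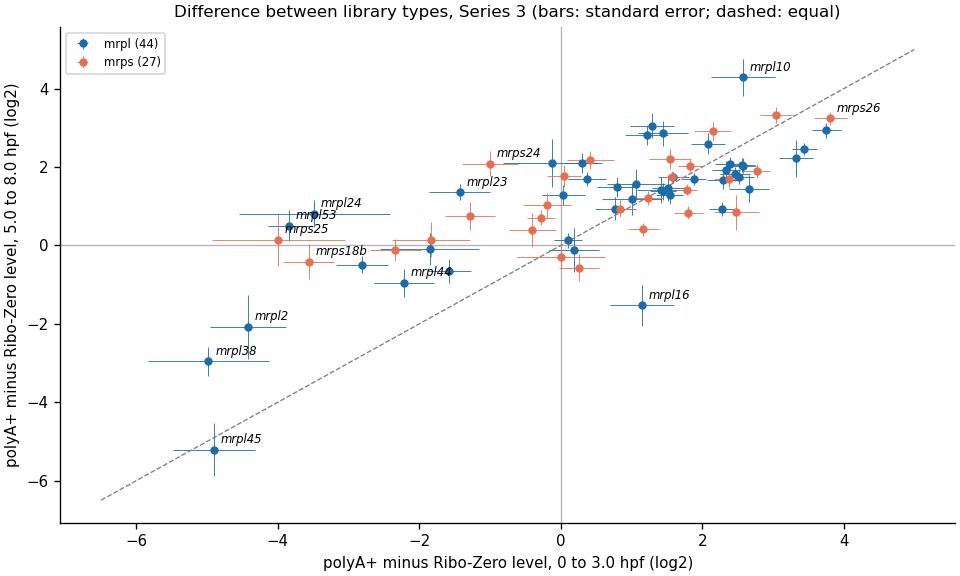
Difference between polyA+ and Ribo-Zero levels of each member in Series 3 (log2), from 5.0 to 8.0 hpf (y axis) against 0 to 3.0 hpf (x axis), 71 members. Bars are standard errors, the dashed line marks equal values, blue is *mrpl* and orange *mrps*. Of the members at the left, *mrpl24*, *mrps25* and *mrpl53* lay between 0.14 and 0.81 in the later window, while *mrpl45* stayed near -5. *mrpl38* and *mrpl44* were also lower in polyA+ in both windows. *mrpl2*, called in neither direction later, had 9.71 to 165 normalised reads in polyA+ against 227 to 294 in Ribo-Zero from 5.0 to 8.0 hpf.

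Members with known places in the ribosome were called in different directions. Of the stalk and its base, which recruit translation factors, *mrpl11* passed the test in none of the polyA+ slopes (-0.22 ± 0.11 in Series 1 and -0.07 ± 0.04 late in Series 2). *mrpl12* passed in early Series 3 alone (0.33 ± 0.07, beside 0.14 ± 0.10 in Series 1), and the 2 slopes were not found to differ (-0.22 ± 0.13). *mrpl10* fell and then rose in Series 2. It also rose in early and late Series 3, the early call being lost in 6 of 7 fits with 1 library left out. *mrps12*, counterpart of the bacterial protein at the decoding centre, passed in none of the 5 polyA+ slopes (from -0.00 ± 0.09 to 0.34 ± 0.17). These were the 2 members, *mrpl11* and *mrps12*, with no call in any polyA+ slope. How many of all genes had no such call was not counted. At the peptidyl transferase centre and tunnel, *mrpl3* and *mrpl16* fell early in both clutches while *mrpl4* rose in both, a call lost in 4 of 7 Series 1 fits with 1 library left out. Of the polyA+ slopes of *mrpl37* the one in early Series 3 was called (-0.25 ± 0.08), a call lost in 5 of 7 fits with 1 library left out, and its Series 1 slope was not found to differ (difference 0.14 ± 0.11). Over all 9 Ribo-Zero libraries *mrpl37* fell as well (-0.10 ± 0.03), a call lost without 0 hpf. *mrpl44*, with an RNase III-like fold, rose in Series 1 and in both windows of Series 2 (0.59 ± 0.14, 0.56 ± 0.10 and 0.22 ± 0.05). In the small subunit *mrps5* and *mrps7*, counterparts of bacterial S5 and S7, rose from 2.5 to 5.0 hpf (0.16 ± 0.05 and 0.29 ± 0.06). *mrps22* rose in Series 1 and both Series 2 windows (0.36 ± 0.11, 0.33 ± 0.06 and 0.12 ± 0.04). *mrps27*, which carries RNA-binding repeats, fell in Series 1 (-0.36 ± 0.07). In Series 2 *mrps27* fell from 2.5 to 5.0 hpf and rose after (-0.25 ± 0.05 and 0.16 ± 0.04). With 1 library left out the *mrps5* call was lost in 5 of 7 fits, and those of *mrps22* in 2 of 7 (Series 1) and 2 of 11 (late).

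*mrps2* (row Xetrov72016148), counterpart of bacterial S2, differed between clutches. It had 40.3, 72.6, 148, 199, 235, 298 and 212 normalised reads in the 7 Series 1 libraries and a lowest, median and highest of 12.5, 30.7 and 60.6 in the 17 of Series 2. In Series 3 polyA+ it was at 0 in 16 of 19 libraries, with a highest value of 20.2, and in Ribo-Zero it ran from 0 to 14.9. Whether reads of this gene mapped equally well in embryos of the other colony was not tested. It was the member with the lowest mean in Series 2 and in both Series 3 library types and was tested in no fit of Series 3 alone. Series 1 and Series 2 also differed where they overlap: at 2.5 and 3.0 hpf, 61 of 72 members (84.7%, beside 76.2% of 12131 genes) were within 2-fold of each other, with 10 more than 2-fold higher in Series 1 and *mrps18b* higher in Series 2. The largest differences were in *mrpl41*, with 3626 and 2672 in Series 1 against 477 and 449 in Series 2, *mrps2*, and *mrps26*, with 5893 and 3956 against 1267 and 1073. Levels were therefore not joined across both series. Slopes of Series 1 and Series 2 that are set side by side in this text come from different clutches.

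Sustained runs of rising or falling values were sought by the rule printed in the methods of the study. In the main, its rule asked for at least 3 successive points, each above (or, for a fall, below) the one before by more than replicate noise, and a 10-fold change over the run, and with the noise line as printed in the methods 0 of 72 members had a rising or a falling run in any series. Few genes of any kind did: of all gene rows 0.156% had a rising run in Series 1, and 0 a falling one, against 1.53% and 0.0046% over Series 2. Series 3 had 1.62% and 0.00495% of rows in polyA+ and 1.57% and 0 in Ribo-Zero libraries. The study reported many more genes with a run than this line gave. The lack of member runs under it therefore says little about the members. With a lower noise line, *mrpl24* (18-fold), *mrpl45* (17.4-fold) and *mrpl23* (10.4-fold) had a rising run in Series 1 that ended at 3.0 hpf (2.60% of rows, and 0 members falling beside 0.0322%). *mrps17* had a falling run in Series 2, a 10.4-fold change from 5.5 to 9.0 hpf (3.36% of rows, and 0 members rising beside 3.78%), and no member had a run in Series 3 (3.78% and 1.30% of rows in polyA+, 1.97% and 0.00495% in Ribo-Zero). With that line and a 2-fold change, 19 members rose and 1 fell over Series 1 (15.1% and 1.91% of rows), and 9 and 16 over Series 2 (12.1% and 19.3%). Series 3 then had 18 and 16 in polyA+ (20.3% and 14.5%) and 0 and 7 in Ribo-Zero libraries (9.19% and 4.51%). These shares are of all 21750 or 20193 gene rows, many of them with few counts. In Series 1, 11551 rows passed the count filter of the slope fits, as did all 72 members. Run shares among such rows were not counted, so whether members had runs more or less often than other expressed genes was not tested.

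Genes that act with these ribosomes were listed apart. Of 40 tested mitochondrial translation and assembly factors, 20 rose and 5 fell in Series 1 (median slope 0.35, beside 31.9% of all genes rising and 29.9% falling). The steepest were *ddx28* (1.35 ± 0.21) and *ptcd3* (1.34 ± 0.13). Both are needed for mitochondrial ribosome function in mammals, and *ptcd3* is itself a small-subunit protein there. Late in Series 2, 7 of 41 rose and 25 fell (median -0.21, beside 35.4% and 38.0% of all genes), with the largest falls in *gadd45gip1* (-1.03 ± 0.09), itself a large-subunit protein under another name, and *mpv17l2* (-0.76 ± 0.07). In the first 3 hours of Series 3, 11 genes of this list were higher in polyA+ than in Ribo-Zero and 20 lower, with a median of -0.90. The median was -0.37 for all genes (31.0% higher and 37.9% lower) and 1.17 for the members. The list holds ribosomal proteins under other names, among them *gadd45gip1*, *ptcd3*, *dap3* and *ict1*. Its counts and medians therefore do not set factors against ribosomal proteins. Of 17 mitochondrial tRNA synthetases 8 rose and 3 fell in Series 1 and 3 rose and 10 fell late in Series 2, and of 8 genes for mitochondrial transcription 7 rose and 0 fell, then 1 rose and 6 fell. These lists were chosen with earlier results of these data known, and no test compared them with the members.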

How the data were processed

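Per the labels and the methods, the authors mapped reads to *X. tropicalis* transcripts with Bowtie 0.12.7, discarded reads that matched more than 1 gene, and deposited raw counts and a normalised signal, the count scaled to 25000000 per library with rRNA left out of the total. Recomputing that signal from the counts gave the same values to within 5.81e-07 of each. Rows that name no gene (3 and 7) were left out, and rRNA took 0.0340 to 35.0% of counts. The GEO molecule field names polyA RNA for all samples. Ribo-Zero libraries were known by title and description.

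Slopes in log2 per hour and differences between library types came from edgeR 4.0.16 quasi-likelihood fits with TMM factors in R 4.3.3, on genes with 10 counts in at least 0.5 of the libraries of a fit, adjusted (Benjamini-Hochberg) over all genes tested. ± is the standard error, and a call is an adjusted p under 0.05. Fits used only the libraries compared. The scripts were tested on simulated data. Alternatives were DESeq2 1.42.0, its size factors in edgeR, library totals, no filter on low counts, the hour as a block, and leaving out each library or hour. At whole hours, deviations of polyA+ and Ribo-Zero libraries of 1 hour correlated at 0.04 to 0.06 from 0 to 3.0 hpf and at 0.52 to 0.71 from 5.0 to 8.0 hpf. Libraries of different hours correlated at -0.09 to 0.04 early and at -0.66 to 0.54 late. The late values thus do not set pairing apart from a shared course in time. The pairing was taken from the split extracts that the study describes. Named were the 3 members with the largest called change in each direction of each comparison, those with the highest and lowest means, and members with well-known roles. The members and all lists were chosen with earlier results of these data known. No genome of the build was used, and no sequence is printed. RefSeq names are from assembly UCB_Xtro_10.0. No counting interval is given, since 1 pool per time does not show biological spread.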

Additional observations from a re-analysis of the deposited data

Results flagged for a closer look

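A total of 17 member values differed between library types or clutches by a test of the difference itself (edgeR, adjusted over all genes), and none was weighed further. From 0 to 3.0 hpf, the polyA+ slope minus the Ribo-Zero slope was 1.71 ± 0.35 for *mrpl24*, 1.11 ± 0.27 for *mrpl4*, 0.74 ± 0.14 for *mrpl23*, 0.68 ± 0.15 for *mrpl44*, 0.49 ± 0.12 for *mrpl21* and -0.32 ± 0.09 log2 per hour for *mrps9*. The adjusted p was between 0.017 and 0.0498. With the hour as a replicate block the adjusted p of these 6 was 0.0866 to 0.133, and each held in 1 of 4 fits with 1 hour left out, the one without 1.0 hpf.

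From 5.0 to 8.0 hpf, the same difference was 1.72 ± 0.35 for *mrpl2*, 1.29 ± 0.24 for *mrps25*, 0.82 ± 0.16 for *mrpl53*, 0.67 ± 0.15 for *mrpl24*, 0.64 ± 0.13 for *mrps24*, 0.50 ± 0.09 for *mrpl41* and -1.94 ± 0.41 for *mrpl45*. With the block all 7 kept an adjusted p between 0.0189 and 0.0462. With library totals none did, and none held in any of 4 fits with 1 hour left out. Fewer genes of any kind were called in those fits than in the main one.

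Between clutches, the Series 1 slope minus the Series 3 slope was -0.72 ± 0.13 for *mrpl43*, -0.54 ± 0.13 for *mrps14*, -0.34 ± 0.10 for *mrps11* and 0.70 ± 0.20 for *mrps24*. *mrpl43* held in all 5 other settings (adjusted p 0.000288 to 0.0223), *mrps14* and *mrps24* in 3 and *mrps11* in 1.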

How the results depend on the processing

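Most counts of called members kept within 1.5 times of their main values under DESeq2's size factors, DESeq2 itself and no filter. With library totals the members rising and falling were 33 and 10 in Series 1, 17 and 2 in early Series 3, 33 and 3 from 2.5 to 5.0 hpf, 11 and 35 after 5.0 hpf in Series 2, and 0 and 11 in late Ribo-Zero. Library-type differences in slope became 12 and 0 early and 0 and 0 late, the clutch difference 3 and 1, and 10 members were lower in late polyA+. Without the filter on low counts, 12 fell in late Ribo-Zero, 0 had a lower early polyA+ slope than Ribo-Zero and 0 a higher slope in Series 1 than in Series 3. DESeq2 called 0 falling in early Ribo-Zero and 2 in late Ribo-Zero, 2 below for the late slope difference and 3 with a higher slope in Series 1. With Series 3 hours multiplied by 0.8, 0 were higher and 1 lower in Series 1. Runs with a lower noise line were 3 rising in Series 1 and 1 falling in Series 2, and with a 2-fold change as well 19 and 1, 9 and 16, 18 and 16, and 0 and 7 in the 4 sets. On library totals *mrps16* reversed to -0.79 in early polyA+ against Ribo-Zero (adjusted p = 0.038). The hour as a replicate block left 0 above and 0 below for the early slope difference, a fit with few residual degrees of freedom, and changed no other count by over 1.5 times (8 and 1 late, and without the block 42 and 16 early and 50 and 3 late for the level difference).

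When 1 library or hour was left out, members rising and falling were 17 to 24 and 17 to 22 in Series 1, 2 to 8 and 4 to 12 in early Series 3, 0 to 1 and 0 to 13 in early Ribo-Zero, 24 to 31 and 3 to 14 from 2.5 to 5.0 hpf, 20 to 27 and 20 to 23 late in Series 2, 8 to 12 and 8 to 14 late in Series 3, 0 to 0 and 0 to 5 in late Ribo-Zero, and 0 to 1 and 28 to 38 over all Ribo-Zero libraries. They were 0 to 17 and 0 to 3 for the early and 0 to 0 and 0 to 0 for the late slope difference, 0 to 6 and 1 to 3 for the clutch difference, and 33 to 42 and 10 to 16 early and 45 to 49 and 2 to 6 late for the level difference. Calls over all genes moved in these fits too, and whether members moved more than other genes was not tested. Depth limited Series 3, where 56 of 72 members reached 10 counts in every polyA+ library.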

Other observations

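In Series 2 polyA+, 30 of 72 members had their highest value at 5.5 hpf and 13 at 8.5 hpf, while 28 had their lowest at 9.5 hpf and 19 at 2.5 hpf. In Ribo-Zero libraries 39 of 72 had their highest value at 0 hpf and 39 their lowest at 8.0 hpf. In Series 1 polyA+, 30 had their lowest value at 0.5 hpf, against 16 at 0 hpf. Times of highest and lowest values were not counted over all genes. They rest on reads scaled to library totals, so whether they are particular to the members was not tested. The members' summed share in the single 5.5 hpf library of Series 2, 0.259%, stood above 0.221% at 5.0 hpf and 0.204% at 6.0 hpf, each from 1 pool.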
